A study of Arabidopsis thaliana with 4 samples.

Results

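Whole seedlings of Arabidopsis thaliana, strain Col-0, were compared after 2 h on paper wetted with 300 mM NaCl and before any salt, written 0 h. The comparison holds 2 of the 4 arrays of the study, replicates 1 and 2 of 2 h, and the other 2 arrays carry 5 h of the same salt. On each Agilent 2-colour array RNA of 0 h was labelled with Cy3 and RNA of salt-treated seedlings with Cy5, so a log2 ratio above 0 is a transcript that was higher after salt. The seedlings of every group were of wild type, 14 d old, and grown at 22 °C on sucrose agar, with 8 h of light in each day. The 0 h sample carries no replicate number and was counted as 1 control sample, so the spread of the control itself is not part of any test against 0. The dyes were not swapped, and a dye bias of a gene cannot be told apart from its response. Seedlings moved to paper without NaCl were not analysed here, so salt, the transfer and the time of day cannot be told apart. The study's design names the replicates as biological, and p-values measure only the spread between these arrays.

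Salt reaches a plant cell first as a loss of water and later as a load of sodium ions. Cells are known to answer the first within minutes through calcium, kinase cascades and the hormones abscisic acid, jasmonate and ethylene, and transcription factor genes are among the first to move. Growth hormones, cell wall loosening and photosynthesis are known to be turned down in the following hours.

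The 2 h arrays carried 20410 measured genes, each read by its brightest probe. The median spot signal was 252 and 282 in Cy3 and 364 and 372 in Cy5, well above background were 71.1% to 72.4% of the spots, and no spot was saturated. Across genes, which are not replicates, the 2 arrays correlated at r = 0.990, and their ratios differed by a median of 0.0645 on the log2 scale. All 9 markers of leaf mesophyll and 14 of 15 markers of root were measured. Levels in whole seedlings cannot tell fewer cells of a type from less RNA per cell. Every change below is the mean log2 ratio of the 2 arrays of 2 h ± the moderated SE of limma, pooled over both times, and a gene is said to have risen or fallen where limma's test with Benjamini-Hochberg adjustment passed 0.05. Among the genes named below as risen or fallen the smallest adjusted p was 7.19e-11, shared by CML38 and others.

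After 2 h the seedlings held more transcripts that had risen far than transcripts that had fallen far. Of 20410 genes 1990 (9.75%) were at least 2-fold higher and 476 (2.33%) at least 2-fold lower. At 4-fold the counts were 650 and 46, at 8-fold 227 and 11, and at 32-fold 22 and 3. By the deposited Feature Extraction ratio, under which the median of all genes lay at −0.15, 61.1% of the 2-fold calls were higher in place of 80.7%, and 69.3% were by the deposited series values. The sizes of some genes moved with the scaling. CYP94B3, at 7.32 here, stood at 8.38 with scaling between arrays, MAPKKK21, at 4.83, at 6.73 by the Feature Extraction ratio, and BGLU19, at −4.12, at −5.54. At any size 16706 genes (81.9%) passed the test, 8447 (41.4%) as higher and 8259 (40.5%) as lower, with a median size of 0.40 on the log2 scale. Most calls are thus of small changes, and the counts at 2-fold, 12.1% of genes in either direction, are mainly used below. Where members of a list are counted as risen or fallen at any size, the shares to set beside them are 41.4% and 40.5%.

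**Figure D1:**
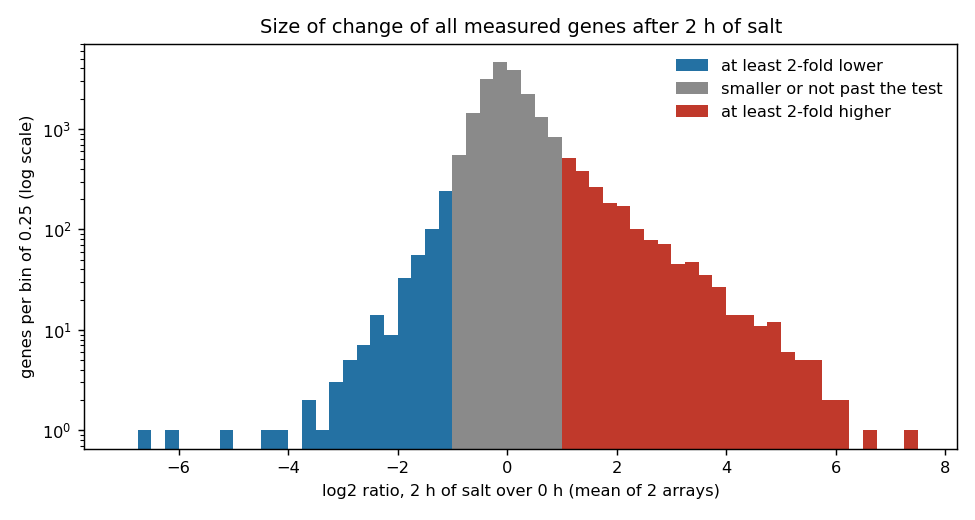
Number of measured genes (vertical axis, log scale) by log2 ratio of 2 h of salt over 0 h (horizontal axis, mean of 2 arrays, bins of 0.25). The tail of the 1990 genes at least 2-fold higher reaches further and holds more genes than that of the 476 at least 2-fold lower.

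Risers of at least 2-fold had a median log2 intensity of 9.17 at 0 h and 11.1 at 2 h, against 9.98 and 10.1 for all measured genes. Genes that fell at least 2-fold went from 10.4 to 8.91. A probe could enter through its signal after salt alone, so these medians are in part set by that filter and by the choice of genes on the ratio. Of the 1990 risers 132 (6.63%) lay below background at 0 h on both arrays, against 514 (2.52%) of all measured genes. Of the 476 fallers 36 lay below background at 2 h on both, against 542 of all 20410 measured genes. Median gene length was 1988 bases among risers and 1726 among fallers, against 2324 bases over all measured genes.

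Genes of jasmonate metabolism, transcription factors and a calcium sensor stood among the 20 largest rises. CYP94B3, which hydroxylates the active jasmonate conjugate, read 7.29 and 7.35 on the 2 arrays. WRKY18 and WRKY40, transcription factors of defence and abscisic acid responses, read 6.12 and 6.10, and 5.80 and 5.89. FAMT, a methyltransferase of farnesoic acid, read 5.67 and 5.74, and LOX3, which begins jasmonate synthesis, read 5.71 and 5.57. In each of these genes both arrays lay above 5.5, a difference from 0 many times the gap between the arrays. CML38, a calmodulin-like calcium sensor, rose by 5.58 ± 0.042 (adjusted p = 7.19e-11 in limma) and EDL3, an F-box protein of abscisic acid responses, by 5.48 ± 0.047. TAT3, a tyrosine aminotransferase that responds to jasmonate, rose by 5.35 ± 0.042, and SRO5, which is known from work on salt and oxidative stress, by 5.22 ± 0.035. As the mean of all its probes LOX3 stood at 4.20 and TAT3 at 4.45. UGT76E12, a sugar transferase, rose by 5.27 ± 0.042. The loci AT2G38240, AT2G22880, AT5G19110 and AT4G28140, to which the annotation used here gives no name, rose by 6.75 ± 0.038, 5.73 ± 0.050, 5.33 ± 0.040 and 5.05 ± 0.043. AT5G52050, annotated as the efflux carrier DTX50, rose by 5.13 ± 0.037.

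Further genes rose from below background at 0 h, and for those only a lower bound of the fold can be given. TPS04 and CYP82G1 act one after the other in the synthesis of homoterpenes, volatile compounds that leaves release after attack. TPS04 was at least 29.4-fold higher and CYP82G1 at least 21.2-fold, and both lay above background on both arrays at 2 h. AT3G53600, AT1G19210 and AT1G22810 were at least 21.1-fold, 20.7-fold and 20.5-fold higher.

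Seed proteins, auxin-responsive SAUR genes and a triterpene cyclase stood among the 20 largest falls. CRA1, a seed storage globulin, read −6.01 and −6.19 on the 2 arrays. BGLU19, a beta-glucosidase, read −4.08 and −4.17, and ICL, the isocitrate lyase that turns stored oil into sugar in germinating seedlings, read −3.09 and −3.12. On both arrays these genes had lost at least 8-fold of their 0 h level. With the mean of its probes CRA1 stood at −4.58. M17, a late embryogenesis protein gene, fell by 3.37 ± 0.048 and TIP3;1, a water channel of the seed vacuole, by 2.45 ± 0.055. DELTA-VPE, a vacuolar protease of the seed coat, was at least 10.7-fold lower and PER1, a seed peroxiredoxin, at least 19.1-fold lower, since both lay below background at 2 h. EXPA8, which loosens cell walls, fell by 2.33 ± 0.038. DAA1, a gene first described as a target of the pollen factor DUO1, fell by 2.85 ± 0.045. AT4G07820, AT1G70880, AT5G55410, AT2G25890, AT2G16005, AT5G22460 and AT1G04560, which have no name in the annotation used here, fell by between 2.35 ± 0.036 and 2.89 ± 0.044.

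Triterpene synthesis genes fell as neighbours along the chromosomes. Arabidopsis makes the triterpenes thalianol and marneral in roots from 2 sets of adjacent genes, each with a cyclase and the cytochrome P450 enzymes that modify its product. In the marneral set the cyclase gene MRN1 read −2.98 and −2.87, and its neighbours CYP71A16 and CYP705A12 fell by 1.33 ± 0.036 and 1.66 ± 0.037. In the thalianol set the cyclase gene THAS1 read −1.92 on both arrays, and its neighbours CYP708A2 and CYP705A5 fell by 1.96 ± 0.034 and 1.74 ± 0.036. All 6 genes were therefore at least 2-fold lower on both arrays, and at 5 h they stood between −2.85 and −1.50. The thalianol genes and CYP71A16 were singled out after their values were seen. Of the whole CYP705 subfamily 15 of 21 measured genes fell, 3 of them at least 2-fold, and 5 rose, with a median of −0.49. CYP705A1 went the other way (1.07 ± 0.041). Of 14 measured markers of root 8 fell and 5 rose, 2 of them at least 2-fold, with a median of −0.27, and their summed intensity went from 13.4 to 13.2 on the log2 scale. Their part in the fall was not tested.

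Several transcription factor families held larger shares of risen genes than the whole array. Of 48 ERF and DREB factors, which bind ethylene- and drought-response elements, 34 were at least 2-fold higher and 1 at least 2-fold lower, against 9.75% and 2.33% of all genes, and the median was 2.19. Of 62 WRKY factors 21 were at least 2-fold higher and of 81 NAC factors 23, each with 1 member at least 2-fold lower. Of 20 heat shock factors 9 were at least 2-fold higher, and of 97 R2R3 MYB factors 25. All 8 measured C2H2 zinc finger repressors rose, 7 of them at least 2-fold. TCP and GATA factors were different in their counts. Of 19 TCP factors, which govern growth of leaves, 13 fell and 5 rose (median −0.32), and of 25 GATA factors 0 were past 2-fold in either direction.

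**Figure D2:**
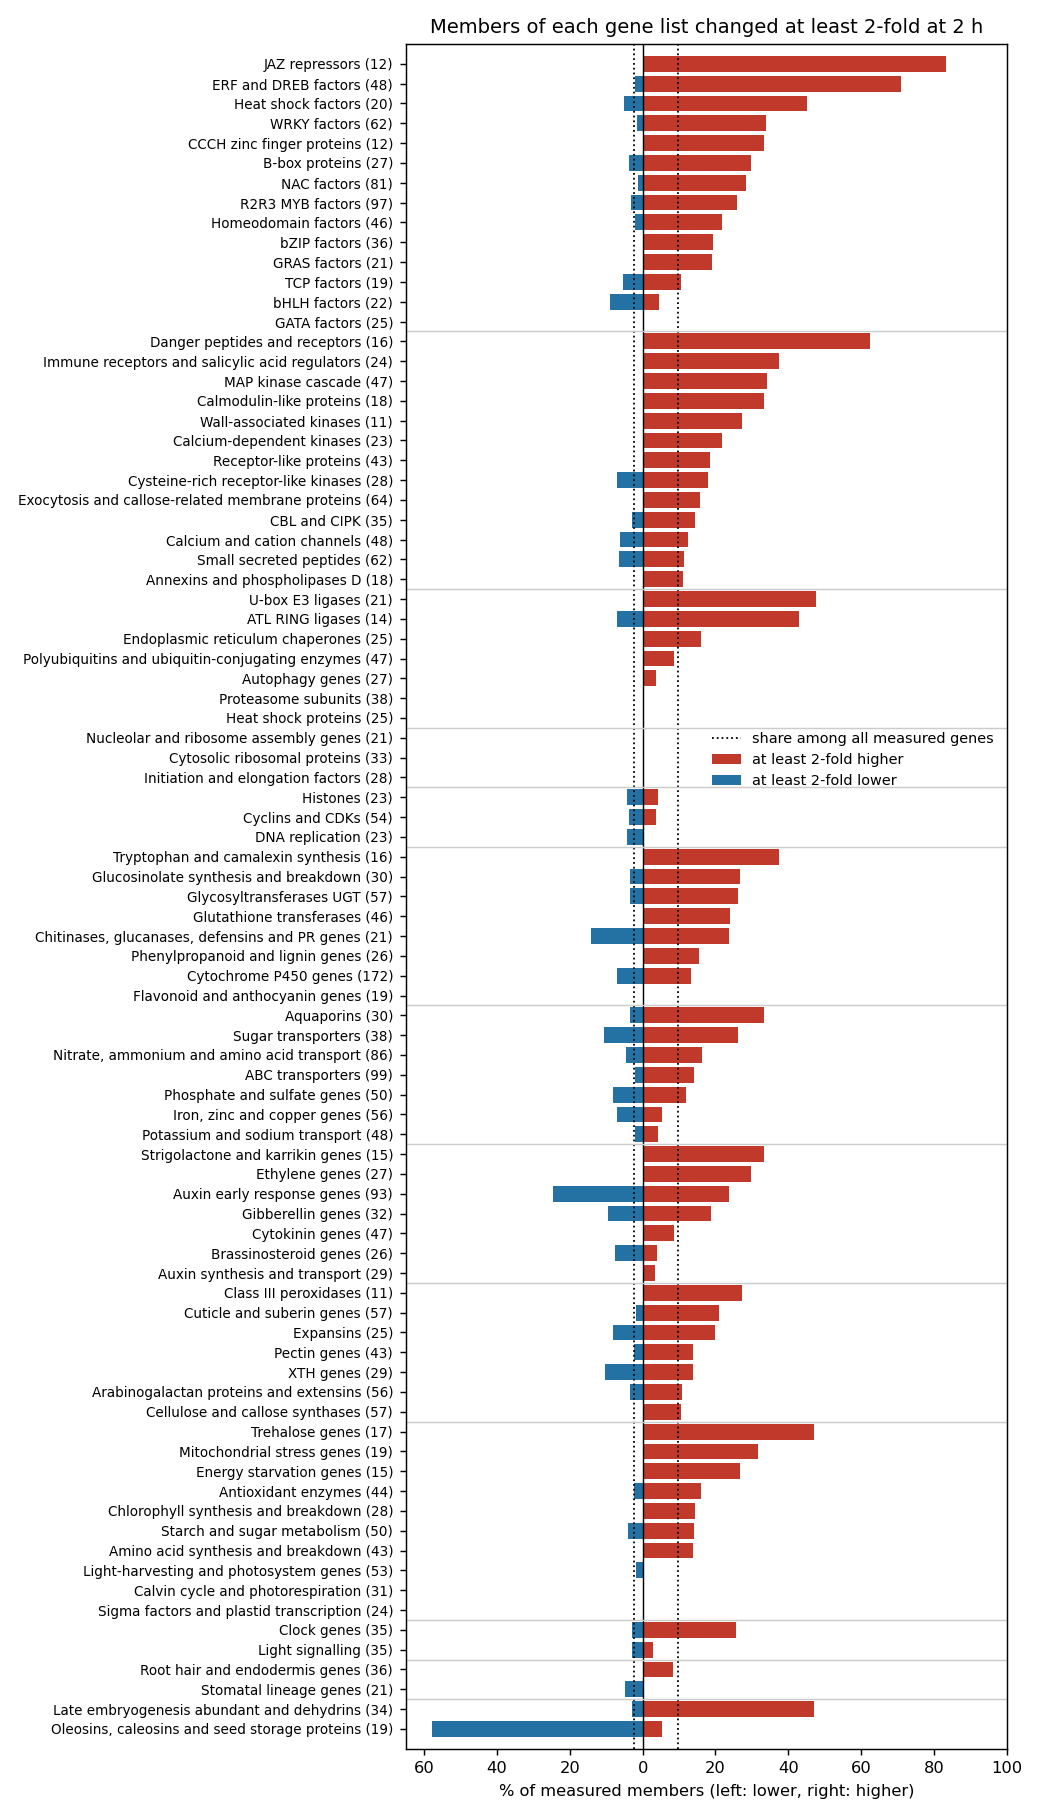
Share of measured members of each gene list that were at least 2-fold higher (right, red) or lower (left, blue) at 2 h, with the number of measured members in brackets. Dotted lines mark the shares among all genes, 9.75% higher and 2.33% lower. Only lists with at least 10 measured members are drawn, and among them JAZ repressors, ERF and DREB factors and danger peptides stand furthest to the right, and seed proteins and auxin early response genes furthest to the left.

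Within these families single members stood out. Of the ERF and DREB factors RAP2.6 read 6.09 and 6.02, RRTF1 6.09 and 5.85, and DDF1 5.48 and 5.41. ERF13, an ethylene-response factor of lateral root formation, read 4.98 and 4.99. CBF1, a DREB factor known from cold acclimation, read 4.79 and 4.76, and its neighbours CBF2 and DREB1A rose by 3.32 ± 0.034 and 1.85 ± 0.038. The 3 genes are tandem copies, and cross-hybridisation between their probes was not tested. ATAF2, a NAC factor of defence, rose by 4.35 ± 0.040 and NAC032 by 3.89 ± 0.036. WRKY28 and WRKY46 rose by 3.62 ± 0.044 and 3.58 ± 0.051. MYB15, a factor of cold and lignin responses, rose by 4.03 ± 0.038. MYBR1, also known as MYB44 and a regulator of stomatal closure, rose by 3.80 ± 0.034, MYB96, a regulator of wax synthesis, by 3.45 ± 0.035, and MYB108 by 3.28 ± 0.045. ZAT6, a zinc finger repressor, read 4.76 and 4.78. RHL41, also known as ZAT12, rose by 3.73 ± 0.034. SZF1 and CZF1, CCCH zinc finger proteins that are induced by salt, rose by 3.54 ± 0.041 and 2.85 ± 0.034.

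Of 20 heat shock factor genes 17 rose and 1 fell, and the genes of heat shock proteins stayed within 2-fold. HSFA6B stood highest at 5.61 ± 0.040, and HSFA3 rose by 2.98 ± 0.036, HSFC1 by 2.52 ± 0.041 and HSFA1E by 2.02 ± 0.058. HSFA6A, the one that fell and named after its value was seen, read −1.58 and −1.51 at 2 h and stood at 1.14 at 5 h. Of 25 heat shock protein genes 0 were at least 2-fold changed, with Hsp70-2 at 0.88 ± 0.037 and CLPB4 at −0.64 ± 0.037. The median of the heat shock proteins, −0.02, turned above 0 under other scalings and gives no direction. Among the factors past 2-fold in other families, TCP9 rose by 2.35 ± 0.040 and PTF1, also known as TCP13, by 1.88 ± 0.040, while TCP4, which promotes the maturation of leaf cells, fell by 1.20 ± 0.036. SCL13, a GRAS factor of light responses, rose by 3.17 ± 0.035, and RGL3, a DELLA repressor of gibberellin responses that is induced by jasmonate, by 2.61 ± 0.051. BZIP60 and BZIP28, which answer unfolded protein in the endoplasmic reticulum, rose by 1.74 ± 0.035 and 1.33 ± 0.035. The homeodomain factors HB-12, HAT22 and HAT2 rose by 2.27 ± 0.036, 2.01 ± 0.057 and 1.78 ± 0.036. CO, which controls flowering by day length, rose by 2.18 ± 0.043. The mean of its probes put CO at 1.55. PRE1, a small helix-loop-helix protein that promotes cell elongation, fell by 1.83 ± 0.040 and bHLH071 by 1.45 ± 0.053.

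**Figure D3:**
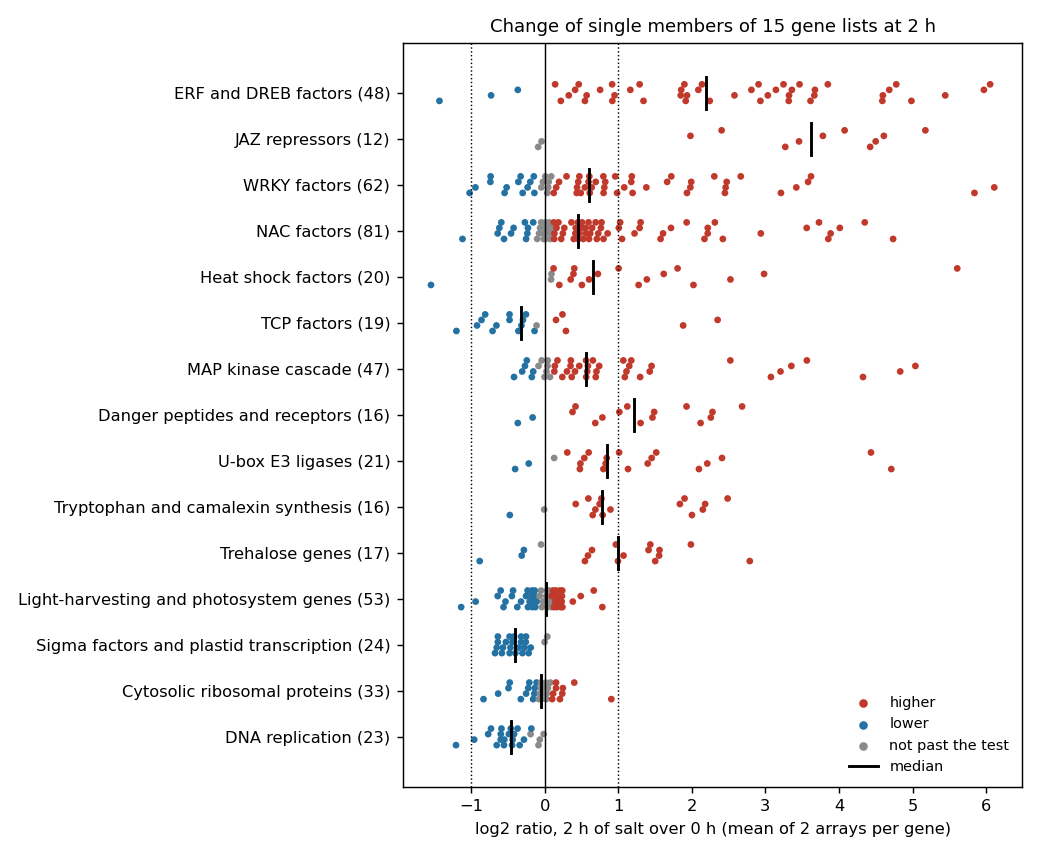
Log2 ratio of 2 h over 0 h (horizontal axis, mean of 2 arrays) of each measured member of 15 gene lists, 1 point per gene. Red points passed the test as higher and blue points as lower, grey points did not pass, black bars are medians, and dotted lines mark 2-fold. ERF and DREB factors and JAZ repressors have medians of 2.19 and 3.62, and most DNA replication and plastid transcription genes lie just below 0.

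Genes of MAP kinase cascades rose, with most of the large changes at the upper tier. A MAP kinase cascade passes a signal from a MAPKKK to a MKK and on to a MPK. Of 20 MAPKKK genes 9 were at least 2-fold higher, of 7 MKK genes 1, and of 19 MPK genes 5, and none of the 46 was at least 2-fold lower. MAPKKK18, which acts in abscisic acid signalling, read 4.98 and 5.10, MAPKKK21 4.88 and 4.78, and MAPKKK19 4.41 and 4.24. MAPKKK13 rose by 3.56 ± 0.048. The first 3 stood above 16-fold on both arrays. MAPKKK19 stood at 2.74 as the mean of its probes.

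Calcium sensors and pumps rose, though not as whole families. Of 18 calmodulin-like genes 6 were at least 2-fold higher, with CML37 at 4.64 ± 0.035 and TCH3 and TCH2, the calmodulin-like touch genes, at 4.13 ± 0.035 and 2.48 ± 0.036. Touch genes are known to answer handling of the plants, and the transfer to paper cannot be told apart from salt here. ACA1 (AT1G27770) and ACA13 (AT3G22910), pumps that remove calcium from the cytosol, rose by 2.32 ± 0.044 and 2.15 ± 0.034. Of 23 calcium-dependent kinases 5 were at least 2-fold higher, the furthest being CPK32 at 1.71 ± 0.048. CIPK9, CIPK2 and CBL1, of the calcium sensor and kinase pairs that govern ion transport, rose by 2.30 ± 0.040, 2.02 ± 0.054 and 1.89 ± 0.034. SIP4, also known as CIPK11, read 3.16 and 2.51 and rose by 2.83 ± 0.14, with a larger gap between its arrays. As the mean of its probes it stood at 2.09. PLC1 (AT5G58670), PLC5 and PLC4, adjacent genes of phospholipases that release calcium-mobilising lipids, rose by 1.66 ± 0.034, 1.08 ± 0.035 and 1.02 ± 0.037.

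Genes of danger signalling rose. In this pathway wounded cells release Pep peptides that are read by the receptors PEPR1 and PEPR2 on their neighbours. Of 16 measured genes of danger peptides and receptors 10 were at least 2-fold higher and 0 at least 2-fold lower, with a median of 1.21. PEPR1 read 2.65 and 2.72, PEPR2 2.12 on both arrays, and the peptide precursor PROPEP4 2.33 and 2.23. SOBIR1, a partner of receptor-like proteins, rose by 2.26 ± 0.035. Cysteine-rich receptor kinases rose in 21 of 28 cases, 5 of them at least 2-fold, and fell in 4, 2 of them at least 2-fold. ARCK1, which acts in abscisic acid and osmotic responses, and CRK14 each stood at 2.92. Wall-associated kinases (3 of 11 at least 2-fold higher) and receptor-like proteins (8 of 43) had 0 members at least 2-fold lower. EDS5 and SARD1, of salicylic acid synthesis, rose by 2.27 ± 0.037 and 2.13 ± 0.037, and ZAR1, an immune receptor, by 1.91 ± 0.034. EXO70H7 and EXO70H8, of vesicle tethering, rose by 2.96 ± 0.038 and 2.22 ± 0.037, and the membrane fusion protein gene SYP122 by 2.41 ± 0.042. EXO70H7 stood at 2.33 as the mean of its probes. RTFL1, of a small peptide, and the phytosulfokine precursor gene PSK2 rose by 3.26 ± 0.049 and 2.74 ± 0.036.

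U-box ligases and polyubiquitin genes rose, and proteasome genes stayed within 2-fold. Of 21 U-box ligases 10 were at least 2-fold higher and 0 at least 2-fold lower (median 0.84). PUB19 and PUB18, negative regulators of abscisic acid and drought responses, read 4.77 and 4.65, and 4.51 and 4.36. PUB24 and PUB23, which restrain immune responses, rose by 2.41 ± 0.046 and 2.21 ± 0.039. Of 14 ATL RING ligases 7 rose, 6 of them at least 2-fold, and 5 fell, 1 of them at least 2-fold, with ATL4 at 1.81 ± 0.034 and CNI1, also known as ATL31, at 1.63 ± 0.038. UBQ11 and UBQ14, polyubiquitin genes, rose by 3.34 ± 0.034 and 2.20 ± 0.041, and close copies of polyubiquitin share sequence. UBQ14 stood at 1.48 as the mean of its probes. Of 38 proteasome subunits 0 were past 2-fold, and the furthest, PBB1, stood at 0.56 ± 0.034. Of 27 autophagy genes only ATG8H, which coats the forming vesicle, was at least 2-fold higher (1.47 ± 0.042).

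Jasmonate genes rose among those that build, hold back and remove the hormone. The adjacent allene oxide cyclase genes AOC1, AOC2 and AOC3, which close the ring of the hormone, rose by 4.31 ± 0.034, 2.72 ± 0.039 and 3.68 ± 0.046. The JAZ proteins hold back jasmonate responses until the hormone removes them, and 10 of 12 measured JAZ genes were at least 2-fold higher. JAZ7 and JAZ1 rose by 4.50 ± 0.035 and 4.42 ± 0.040, while JAZ4 at −0.09 ± 0.054 and JAZ11 at −0.04 ± 0.041 did not pass. On the side of removal CYP94B1 read 4.89 and 4.85 and CYP94C1 read 4.54 and 4.53. The amidohydrolase genes IAR3 and ILL6, which split the active conjugate, rose by 4.22 ± 0.039 and 4.18 ± 0.043, and ST2A, a sulfotransferase of hydroxyjasmonate, by 3.51 ± 0.058. Both arrays of each of these named genes of removal lay above 3. Of 4 measured CYP94 genes 3 were at least 2-fold higher and 1 fell, to −0.51. The genes AOC1 to AOC3, IAR3, ILL6 and ST2A were named after their values were seen.

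Auxin genes split by family. SAUR genes encode small proteins that promote cell expansion, Aux/IAA genes encode repressors that auxin removes, and GH3 genes encode enzymes that conjugate the hormone. Of 60 SAUR genes 22 were at least 2-fold lower and 11 at least 2-fold higher, and the median was −0.33. Of 25 Aux/IAA genes 7 were at least 2-fold higher and 1 lower, and of 8 GH3 genes 4 were higher and 0 lower. Over the whole list of 93 early response genes 22 were therefore at least 2-fold higher and 23 lower, and its median of 0.08 turned below 0 under another scaling.

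SAUR genes that fell lay side by side. SAUR63 and its neighbours AT1G29450 and AT1G29460, annotated as SAUR64 and SAUR65, read between −2.87 and −2.30 over both arrays. SAUR22 read −2.56 and −2.60, AT5G18030 read −2.68 and −2.62, and their neighbours SAUR19 and SAUR20 fell by 2.28 ± 0.035 and 1.97 ± 0.036. Another block of AT4G38840, SAUR15 and AT4G38860 fell by 2.07 ± 0.039, 1.55 ± 0.041 and 1.84 ± 0.038. The genes of a block are near copies, so cross-hybridisation may tie their values. AT4G12410 (SAUR35) went the other way and read 3.84 and 3.87, and AT2G35290 (SAUR79) rose by 2.70 ± 0.035. Among repressors IAA19, IAA6 and IAA5 rose by 2.27 ± 0.036, 2.20 ± 0.047 and 2.16 ± 0.037, and IAA14, which restrains lateral roots, fell by 1.36 ± 0.039. WES1 (GH3.5) and BRU6 (GH3.2) rose by 2.13 ± 0.039 and 1.49 ± 0.036. YUC9, of auxin synthesis, rose by 1.48 ± 0.039, and the auxin carrier genes PIN7 and LAX2 fell by 0.99 ± 0.041 and 0.77 ± 0.035.

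**Figure D4:**
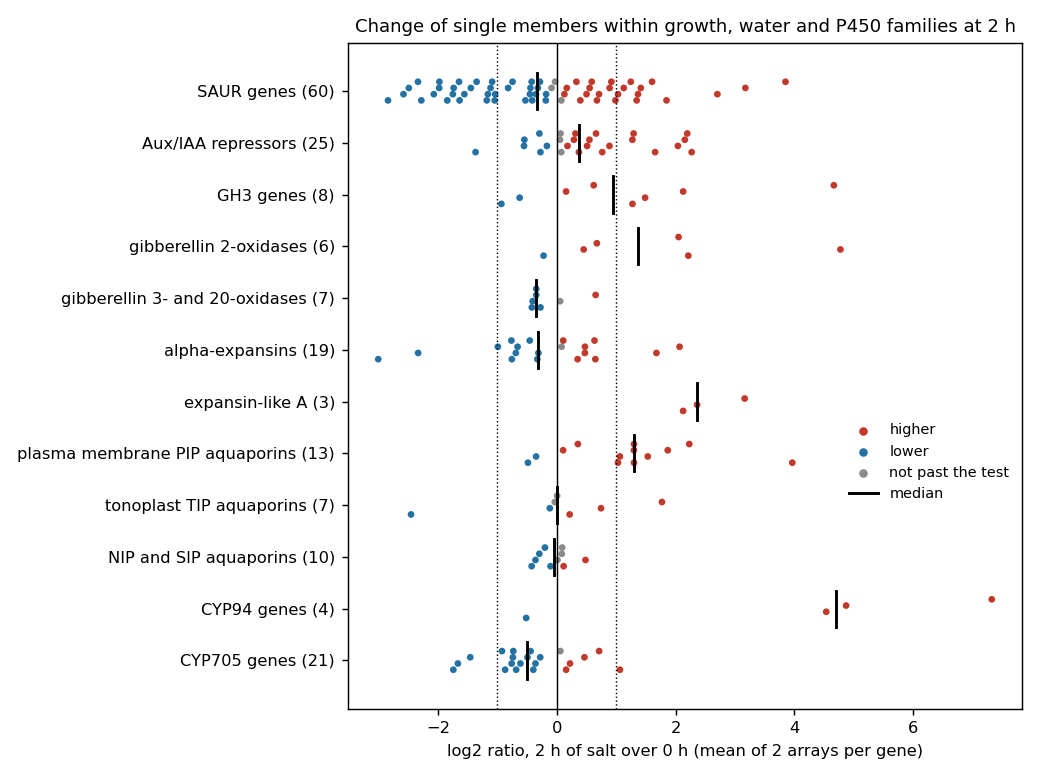
Log2 ratio of 2 h over 0 h (horizontal axis, mean of 2 arrays) of each measured member of families within the auxin, gibberellin, expansin, aquaporin and cytochrome P450 lists, 1 point per gene, coloured by the test, with medians as black bars and dotted lines at 2-fold. SAUR genes spread from −2.84 to 3.85, plasma membrane aquaporins lie mostly above 1, and CYP705 genes mostly below 0.

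Genes of gibberellin breakdown rose, and most of those of its synthesis fell slightly. Of 6 gibberellin 2-oxidases, which inactivate the hormone, 5 rose, 3 of them at least 2-fold (median 1.36). GA2OX6 read 4.75 and 4.80 and GA2OX2 2.26 and 2.17, and GA2OX7 rose from below background at 0 h. The mean of its probes put GA2OX2 at 1.22. Of 7 gibberellin 3- and 20-oxidases, which make the active hormone, 5 fell and 1 rose, 0 of them past 2-fold (median −0.34). The receptor gene GID1B rose by 2.16 ± 0.039. Strigolactone and karrikin genes rose in 10 of 15 cases, 5 of them at least 2-fold, against 41.4% and 9.75% of all genes. The receptor gene D14 (AT3G03990) rose by 1.71 ± 0.034 and SMXL2 (AT4G30350) and SMAX1 (AT5G57710), repressors that karrikin signalling removes, by 2.35 ± 0.044 and 1.53 ± 0.050. AT4G30350 stood at 1.65 as the mean of its probes. Of 47 cytokinin genes 4 (8.51%) were at least 2-fold higher, no larger a share than the 9.75% of all genes. These were the activating genes LOG5 (1.78 ± 0.039) and LOG4 (1.13 ± 0.045) and the oxidase genes CKX6 (1.14 ± 0.042) and CKX5 (1.09 ± 0.046). Of 26 brassinosteroid genes BEH2 rose by 1.92 ± 0.036, and BEE3 and BEE2, growth-promoting factors, fell by 1.30 ± 0.061 and 1.08 ± 0.035.

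Most ethylene and clock genes rose, against 41.4% of all genes, and light signalling genes moved both ways. Of 27 ethylene genes 22 rose, 8 of them at least 2-fold, and 3 fell, and EBF1, which limits ethylene responses, rose by 1.27 ± 0.037. Of 35 clock genes 21 rose, 9 of them at least 2-fold, and 11 fell, 1 of them at least 2-fold. BOA, a relative of LUX in the evening complex, read 1.97 and 1.97, RVE2, a morning factor, read 1.95 and 1.94, and CDF2, which delays flowering, rose by 1.49 ± 0.036. The time of day of each harvest was not analysed here, so that time and salt cannot be told apart for these genes. Of 35 light signalling genes 14 rose and 11 fell, with 1 at least 2-fold in each direction. ELIP2, which protects plastids from excess light, rose by 1.88 ± 0.035, while PKS2 and PKS1, of phototropism and phytochrome signalling, fell by 1.28 ± 0.043 and 0.95 ± 0.045. STOMAGEN, a peptide that promotes stomata, was the one gene of 21 in its list past 2-fold and read −1.47 and −1.51. Of 36 genes of root hairs and the endodermis 25 fell and 8 rose, against 40.5% and 41.4% of all genes. Their median of −0.37 lay between −0.85 and −0.37 under the scalings tried. The members past 2-fold were all higher, with RHD3, of membrane traffic in root hairs, at 1.29 ± 0.044 and the cellulose synthase-like gene CSLD3 at 1.12 ± 0.039.

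Defence chemistry rose along the path from tryptophan to camalexin. Camalexin, the main phytoalexin of Arabidopsis, is made from tryptophan with glutathione as its sulfur donor. Of 16 measured genes 14 rose, 6 of them at least 2-fold, and 1 fell (median 0.78). ASA1, which commits carbon to tryptophan, read 2.20 and 2.16, GGP1, which trims the glutathione adduct, 2.11 and 2.19, and PAD3, the last enzyme, 1.96 and 2.04. GSTF6, a glutathione transferase of the path, rose by 2.49 ± 0.039. Both arrays of all 4 lay between 1.96 and 2.54.

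Glucosinolate genes rose in 19 of 30 cases, 8 of them at least 2-fold, and fell in 7. Over all genes 41.4% rose and 40.5% fell. MYB51 and CYP81F2, of the branch made from tryptophan, rose by 1.43 ± 0.043 and 1.34 ± 0.035, and MYB28, which drives the branch made from methionine, fell by 1.33 ± 0.038. Of 57 UGT sugar transferases 15 were at least 2-fold higher and 2 lower, with UGT85A1 at 2.75 ± 0.042 and UGT71B6, which conjugates abscisic acid, at 2.01 ± 0.035. Of 46 glutathione transferases 11 were at least 2-fold higher and 0 lower. GSTU5 rose by 2.97 ± 0.034, and GSTU6 read 3.84 and 2.43, the widest gap of these genes. The alcohol dehydrogenase gene ELI3-2, known from defence, rose by 4.09 ± 0.040, and CAD5, of lignin synthesis, by 2.03 ± 0.038. HPL1, a hydroperoxide lyase that makes green leaf volatiles, read 3.76 and 3.73. The salicylate methyltransferase gene BSMT1 was at least 4.78-fold higher. Of 21 genes of chitinases, glucanases, defensins and PR proteins 17 rose, 5 of them at least 2-fold, and 4 fell, 3 of them at least 2-fold. BGL2 rose by 3.00 ± 0.036, while PDF2.1, a defensin-like gene, and THI2.2, a thionin, fell by 2.11 ± 0.037 and 1.89 ± 0.042.

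Most genes of plasma membrane water channels rose. Of 13 PIP aquaporins 9 were at least 2-fold higher and 0 at least 2-fold lower, with a median of 1.30. RD28 (PIP2;3) read 3.98 and 3.95, PIP2B (PIP2;2) 2.18 and 2.28, and PIP2A (PIP2;1) 1.85 and 1.89. PIP2;8 and PIP2;4 fell, by 0.35 ± 0.037 and 0.48 ± 0.041. Of 7 vacuolar TIP aquaporins 1 was at least 2-fold higher and 1 lower, and of 10 NIP and SIP aquaporins 0 were past 2-fold. PIP2;2 and PIP2;3 are near copies and their values may be tied.

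Transporters of nitrogen compounds, sugars and lipids moved as single genes in both directions. Of 86 genes of nitrate, ammonium and amino acid transport 14 were at least 2-fold higher and 4 lower. Of 38 sugar transporters 10 were at least 2-fold higher and 4 lower, and of 99 ABC transporters 14 and 2. Over all genes these shares were 9.75% and 2.33%. Among the falls was the sugar exporter gene SAG29, by 1.80 ± 0.036. ProT3, a proline carrier, read 3.96 and 3.89. GTR1, a glucosinolate carrier, rose by 2.32 ± 0.034, NRT1.8 and NRT1.7, which move nitrate between vessels and leaves, by 2.15 ± 0.066 and 1.89 ± 0.034. MSS1 (STP13), a hexose importer, rose by 2.80 ± 0.041. ABCG1, an exporter of suberin precursors, and ABCG22, of stomatal control, rose by 3.09 ± 0.034 and 2.17 ± 0.034. Of 48 potassium and sodium transport genes 2 were at least 2-fold higher and 1 lower, and CHX16, a cation exchanger, fell by 1.12 ± 0.042. NHX2, a vacuolar exchanger of sodium and potassium, fell by 0.92 ± 0.039. Of 56 iron, zinc and copper genes 21 rose, 3 of them at least 2-fold, and 25 fell, 4 of them at least 2-fold. FER3 and FER1, which store iron in plastids, rose by 2.85 ± 0.035 and 1.81 ± 0.034, while 1 of the 4 measured ferritin genes fell. SULTR1;2, the sulfate importer of roots, fell by 1.51 ± 0.038.

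Cell wall families moved in both directions. All 3 measured expansin-like A genes were at least 4-fold higher, with EXLA2 at 3.21 and 3.11, EXLA3 at 2.37 and 2.36 and EXLA1 at 2.13 and 2.12 on the 2 arrays. Of 19 alpha-expansins 2 were at least 2-fold higher and 2 lower. XTH9, an enzyme that recuts xyloglucan, fell by 1.58 ± 0.037 and its relatives XTH18, XTH20 and TCH4 rose by 1.41 ± 0.035, 1.40 ± 0.035 and 1.16 ± 0.035. AGP1 and AGP2, arabinogalactan proteins of the cell surface, rose by 3.48 ± 0.034 and 2.51 ± 0.034. PGIP2 and PGIP1, which inhibit pectin-cutting enzymes of pathogens, rose by 2.45 ± 0.034 and 1.62 ± 0.034. The cuticle and suberin genes had 12 of 57 members at least 2-fold higher and 1 lower. KCS1, of very long fatty acids, rose by 2.77 ± 0.048, CYP86A2, of cutin, by 2.38 ± 0.037 and CER2, of wax, by 2.30 ± 0.034.

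Of 50 genes of starch and sugar metabolism 7 were at least 2-fold higher and 2 lower, and at any size 25 fell and 17 rose. BAM1 (AT3G23920), a beta-amylase known from starch breakdown in stress, read 3.74 and 3.77, and CT-BMY and BMY3, annotated beta-amylases, rose by 2.44 ± 0.046 and 2.26 ± 0.041. BAM6 fell by 1.25 ± 0.034. Of 17 trehalose genes 8 were at least 2-fold higher and 0 lower (median 0.99), led by the phosphatase gene TPPG at 2.79 ± 0.044 and TPS11 at 1.99 ± 0.038. DIN11, a gene of dark-induced starvation, rose by 2.99 ± 0.062. SUS1, which splits sucrose, rose by 2.12 ± 0.038, HMT3, of methionine synthesis, by 2.36 ± 0.034 and ERD5, which breaks down proline, by 2.01 ± 0.035. As the mean of its probes ERD5 stood at 1.35. DIC2 and UCP5, carriers of the inner mitochondrial membrane, rose by 3.40 ± 0.034 and 3.17 ± 0.034, and BCS1, a mitochondrial ATPase, by 2.74 ± 0.038. BCS1 stood at 1.61 by the mean of its probes. MDHAR, which regenerates ascorbate, rose by 3.27 ± 0.035, and CSD2, a superoxide dismutase of plastids, fell by 2.23 ± 0.034.

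Photosynthesis transcripts had moved little by 2 h. Of 53 light-harvesting and photosystem genes 0 were at least 2-fold higher and 1, PSBP-2 at −1.14 ± 0.053, at least 2-fold lower, and of 31 genes of the Calvin cycle and photorespiration 0 were past 2-fold. The genes that transcribe the plastid genome were shifted slightly as a list. Of 24 sigma factors and plastid transcription genes 22 fell and 0 rose, against 40.5% and 41.4% of all genes, each by less than 2-fold, with a median of −0.41 that lay between −0.52 and −0.30 under the scalings tried. PTAC12 and PTAC5 fell by 0.68 ± 0.036 and 0.64 ± 0.034. Of 28 genes of chlorophyll synthesis and breakdown 17 fell and 8 rose, with a median of −0.29, and the 4 past 2-fold were all higher. Among these 4, CLH1, a chlorophyllase induced by jasmonate, read 3.10 and 3.08. NYE1, which starts chlorophyll breakdown, rose by 1.61 ± 0.042, and HEMA2, of tetrapyrrole synthesis, by 1.96 ± 0.037.

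Replication genes were also shifted slightly at 2 h. Of 23 genes of DNA replication 19 fell and 0 rose, 1 of them at least 2-fold, with a median of −0.46 that lay between −0.78 and −0.42 under the scalings tried. Among them TSO2, a subunit of the enzyme that makes DNA precursors, fell by 1.21 ± 0.037, ORC2, of the origin recognition complex, by 0.96 ± 0.045 and MCM2, of the replicative helicase, by 0.73 ± 0.056. Of 54 cyclin and CDK genes 28 fell and 17 rose, with 2 at least 2-fold in each direction. CYCA1;1, a cyclin of dividing cells, fell by 1.14 ± 0.036, while AT5G63370 of the same list rose by 2.20 ± 0.044. Of 23 histone genes 16 fell and 3 rose, with 1 at least 2-fold in each direction. HIS1-3, a linker histone known from drought, fell by 2.28 ± 0.037, and HTR11 rose by 1.29 ± 0.044. In protein synthesis, of 33 cytosolic ribosomal proteins, 28 initiation and elongation factors and 21 ribosome assembly genes 0 were past 2-fold, and RPL18AA was furthest below at −0.83 ± 0.041. By the mean of its probes RPL18AA stood at −0.25.

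Protective proteins rose unevenly beside the fall of seed proteins. The list of late embryogenesis abundant proteins and dehydrins also took in HVA22D, of the separate HVA22 family. Of the 34 measured genes of the list 16 were at least 2-fold higher and 1 lower (median 0.96). HVA22D stood at 3.72 ± 0.035 and LEA14 at 2.53 ± 0.053. Of 19 oleosins, caleosins and seed storage proteins 11 were at least 2-fold lower and 1, RD20, higher. The adjacent albumin genes SESA1 and SESA3 fell by 1.34 ± 0.052 and 1.45 ± 0.045, and SESA2, between them, lay below background at 2 h. Markers of embryo and seed fell in 12 of 13 cases, and their summed intensity went from 14.5 to 10.5 on the log2 scale. What produced seed transcripts in seedlings of this age at 0 h was not tested. Of the markers of other tissues 1 epidermal and 2 root markers, WOX5 (1.48 ± 0.037) and IRT1 (2.04 ± 0.037), were past 2-fold.

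The arrays of 5 h were set beside those of 2 h, and both share the 0 h sample. Against 0 h, 2771 genes (13.6%) were at least 2-fold higher at 5 h and 1486 (7.28%) lower. At 5 h 884 genes (4.33%) were at least 2-fold higher than at 2 h and 701 (3.43%) at least 2-fold lower, and at any size 33.6% were higher and 38.9% lower. Of the replication genes 21 of 23 were lower at 5 h than at 2 h, 6 at least 2-fold, and their median went from −0.46 to −1.41. Helicase subunits of the MCM family went from a median of −0.51 to −1.48. Of the light-harvesting and photosystem genes 44 of 53 were lower at 5 h and the median, whose sign at 2 h depends on the scaling, went from 0.02 to −0.41. Endoplasmic reticulum chaperones were lower in 21 of 25 cases and went from 0.26 to −0.34, and glucosinolate genes in 23 of 30 cases and went from 0.49 to −0.45. Autophagy genes went the other way, 23 of 27 higher at 5 h and 0 lower, with ATG8H going from 1.47 to 3.13. Of 34 genes in the list of late embryogenesis proteins and dehydrins 17 were at least 2-fold higher at 5 h than at 2 h, and of 57 UGT genes 21. Of 24 plastid transcription genes SIGE, a sigma factor, went from 0.03 at 2 h, where it did not pass, to 2.35 at 5 h.

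Some genes stood high at 2 h and lower at 5 h, some crossed from low to high, and others moved further in the same direction. The following 5 in each direction were chosen for the size of the difference between 5 h and 2 h, which is given as a description. CYP82G1 read 4.41 at 2 h and 0.48 at 5 h, and TPS04 read 4.88 and 1.91, so the pair of homoterpene genes stood highest at 2 h. AT4G10390 read 2.86 and 0.16. EXPA8 and GASA6, a gibberellin-regulated gene, read −2.33 and −1.28 at 2 h and −5.17 and −3.89 at 5 h. The lipid transfer protein genes LTP3 and LTP4, which are near copies, read −1.66 and −1.76 at 2 h and 3.28 and 2.73 at 5 h. SAG29 (SWEET15), a sugar exporter of ageing leaves, read −1.80 and 2.38, and AT3G17520 read −1.50 and 2.42. GLYI7, of methylglyoxal removal, read 2.08 and 5.96. In each of these genes the times did not overlap, which follows from the choice by size and by the test of 5 h against 2 h.

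**Figure D5:**
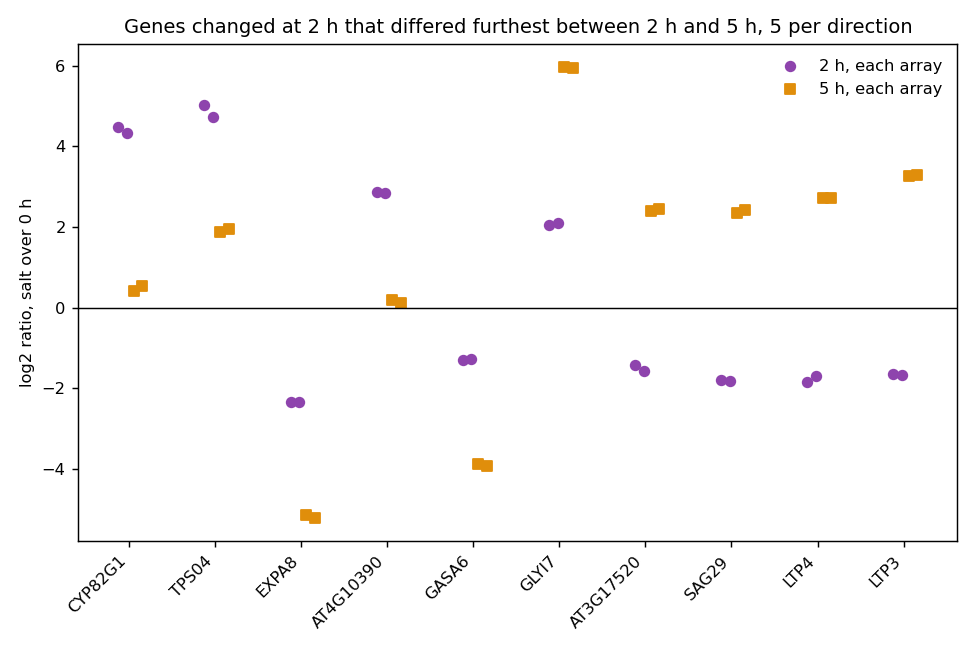
Log2 ratio over 0 h (vertical axis) on each array of 2 h (circles) and 5 h (squares) for genes at least 2-fold changed at 2 h, the 5 in each direction that differed furthest between the times. CYP82G1, TPS04 and AT4G10390 are high at 2 h and lower at 5 h, and LTP3, LTP4, SAG29 and AT3G17520 lie below 0 at 2 h and above 0 at 5 h.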

How the data were processed

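Each of the 4 arrays holds Cy3 (0 h) and Cy5 (salt) of whole seedlings. The deposited array files give median spot and background intensity as the scanner wrote them. Per the file headers, they also give processed signals and a log10 ratio of Cy5 over Cy3 from Feature Extraction 11.5.1.1. Version 9.3.2.1 stands in the submitters' processing notes. A further deposited table of log2 ratios tracked each array's log10 ratio, once both were on a log2 scale (lowest r 0.9973 over probes), apart from a median shift of 0.0858 to 0.118 whose basis is not given in the sources used here. The column medians were 0.143, 0.140, 0.0533 and 0.180.

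Log2 ratios were computed from the median intensities with limma 3.58.1 in R 4.3.3: normexp background correction with an offset of 50, loess within each array with control spots at weight 0, and no scaling between arrays. Spots marked as outliers, at most 3 on an array, were dropped, and repeat spots of a probe averaged. Probes were used where Cy3 was well above background on 2 or more arrays, or Cy5 on each array of 2 h or of 5 h. Probes were named by RefSeq transcript through a table of TAIR10.1 genes, used for names only (34348 of 43603 probes), and each gene was read by its brightest such probe. A single fit over the 4 arrays had a mean per time, with 2 residual and 5.43 prior degrees of freedom, and p-values were adjusted by Benjamini-Hochberg over all genes. A change of at least 2-fold needs an adjusted p under 0.05 and a log2 change of at least 1. Bounds set a signal below background at the lowest signal well above it, or at its own value where that is higher. The fit was tested on simulated data.

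The members and lists were chosen with earlier results of these data known, and homonyms were removed from lists by name after counts were seen, so lists are described by counts and medians without a test. Genes were named by rule: the 20 largest rises and falls bright in both channels, the 4 largest changes of each list (all members of lists up to 10), the 5 genes bright in both channels whose 2 h arrays differed most, the 5 largest rises from and falls to below background, and the 5 largest differences between times in each direction. Others are named as family members or said to be chosen after their values were seen. Replicate numbers shared by 2 h and 5 h do not pair the samples (r = 0.0591 between same-numbered deviations, with 2 pairs). Sequences are not reported here.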

Additional observations from a re-analysis of the deposited data

Results flagged for a closer look

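Among the named genes 6 that were at least 2-fold changed at 2 h differed from that by 8-fold or more at 5 h, by limma's test. Genes were named for this difference only as the 5 largest in each direction, so 6 is not a count over all genes. The difference, 5 h minus 2 h on the log2 scale, was 4.94 for LTP3 and 4.49 for LTP4, lipid transfer protein genes that are near copies. It was 4.19 for SAG29, a sugar exporter, 3.92 for AT3G17520 and 3.88 for GLYI7, of methylglyoxal removal. For CYP82G1, of homoterpene synthesis, it was −3.93, and the gene lay below background at 0 h. Both arrays of each time agreed in side for each of the 6, which a choice by size and test favours.

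Probes without a gene name were outside the comparisons above. Of 4224 such probes that passed the filter, 298 were at least 2-fold higher on both 2 h arrays (7.06%) and 64 at least 2-fold lower (1.52%), beside 8.95% and 1.72% of probes with a name.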

How the results depend on the processing

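Of 406 named genes 398 kept their call and direction in those of the 15 settings that gave them a value, among them no background correction, an offset of 10, no filter on dim probes, bright probes alone, other scalings and the 2 h arrays alone. 3 genes reversed, none of which passed the test in the main setting: HCA2 (−0.23 by the Feature Extraction ratio), TPS03 (0.082 with the mean of a gene's probes) and AT1G04800 (0.65 without 2 h replicate 2, whose arrays read 0.65 and −0.79). The count of genes at least 2-fold lower at 2 h, 476, was 1550 by the Feature Extraction ratio, 1210 by the deposited series table, 716 with scaling between arrays and 309 when limma tested against a 2-fold change. The count of genes at least 2-fold lower at 5 h than at 2 h, 701, was 1343, 1432 and 339 by the first, second and last of these, and that of genes at least 2-fold higher at 5 h than at 2 h, 884, was 566 by the last. At 1.5-fold the counts, that of genes at least 2-fold higher at 2 h among them, were 3594 higher and 1805 lower at 2 h, and 2154 and 2436 at 5 h against 2 h. Of all calls at 2 h 38.8% were higher by the Feature Extraction ratio in place of 50.6%. The cause was not tested. Leaving out each array in turn gave 1962 to 2013 and 476 to 490 genes at least 2-fold higher and lower at 2 h, 883 to 908 and 680 to 734 at 5 h against 2 h, and 7988 to 8358 and 7662 to 8183 higher and lower at any size. With the replicate number as a block 1990 and 476 genes were at least 2-fold higher and lower at 2 h, the same counts, and the numbers do not pair the samples. All arrays lay on 1 slide, so slide as a block was not run. Of the named genes 58 moved by over 1.5-fold in size by the Feature Extraction ratio, 60 by the deposited series table, 50 with scaling between arrays, 28 with an offset of 10 and 17 with the mean of a gene's probes. The number of arrays limits the precision, and dim genes have only bounds.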

Other observations

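Genes at least 2-fold changed lay in runs along the chromosomes. Protein-coding genes were taken in order of their start on each chromosome, and a gene that was not measured ended a run. Counted so, 39 runs of 3 or more neighbours were at least 2-fold higher (125 genes) and 6 runs were at least 2-fold lower (18 genes). The longest run held 5 genes, AT4G15660 to AT4G15700 on chromosome 4, with log2 changes between 1.62 and 2.25. Some runs are tandem copies, such as MSRB7, MSRB8 and MSRB9, methionine sulfoxide reductases of chromosome 4, between 1.56 and 2.97. Others hold genes of different families, such as HEMA2, RAS1, SUT4 and LRR XI-23 on chromosome 1, between 1.33 and 2.35. No test of the runs was made. By chromosome, between 9.17% and 10.1% of measured genes were at least 2-fold higher and between 2.01% and 2.63% at least 2-fold lower.

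Among genes well above background in both channels the 2 arrays of 2 h disagreed most for 5. GSTU6 read 3.84 and 2.43, AT5G61660 −0.21 and −1.69, AT1G04800 0.65 and −0.79, AT4G29020 −0.07 and −1.39, and NF-YB2, a subunit of a CCAAT-binding factor, 2.24 and 1.11. AT2G41910, which lay below background at 0 h and was chosen after its values were seen, read 2.26 and 0.01, the widest gap of all measured genes.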
